A study of Mus musculus with 8 samples.

Results

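The murine leukemia virus-like (MLV-like) and MuRRS families are endogenous retroviruses of the ERV1 class, which RepeatMasker names RLTR4_MM-int, RLTR6-int, MuLV-int, MuRRS-int, MuRRS4-int and MurERV4_19-int. The "int" marks the internal part of a provirus, between its long terminal repeats. The members were the rows of these 6 family names off the random scaffolds. No measured value entered this rule, though it was set with earlier results of these data known. They were 256 of the 17857 repeat elements of the deposited table, which lists elements of at least 5001 bp. RLTR6-int had 196 copies, RLTR4_MM-int 45, MuLV-int and MuRRS-int 6 each, MuRRS4-int 2 and MurERV4_19-int 1. A further 25 rows of these names, 23 of them RLTR6-int, lay on random scaffolds, had 0 reads and were left out.

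ERV1 proviruses of the mouse descend from gammaretroviruses, whose full-length form carries gag, pol and env genes between 2 long terminal repeats. RLTR4_MM-int and MuLV-int hold sequence of the MLV type, and RLTR6-int and the MuRRS elements are relatives of it. In embryonic stem cells such proviruses are held down by histone H3 lysine 9 methylation and by DNA methylation. DAXX is a histone chaperone that works with ATRX to place histone H3.3, also at endogenous retroviruses. A family name covers many separate insertions, so a family sum can come from many copies or from 1.

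The 8 libraries were made from polyadenylated cytoplasmic RNA of mouse embryonic stem cells, 1 per group. J1 is a line with its DNA methyltransferases (DNMTs) intact, and TKO a line with 3 DNMTs knocked out. Both came with DAXX intact or DAXX knocked out, and all 4 lines were grown in regular medium or for 72 hours in the medium that the labels call ground state. That medium, called 2i here, added vitamin C (100 µg/ml) to PD0325901 (1 µM), which blocks MEK, and CHIR99021 (3 µM), which blocks GSK3b. Neither clone numbers nor replicates of a line were given, so each of the 4 genotypes is known from 1 line in 2 media. The assembled transcripts carry no gene names, so neither the knockouts nor the stem cell state was checked against marker genes.

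Library totals lay between 67.4 and 99.1 M reads, and levels are given as reads per M of that total (RPM) or, to set families beside each other, as the authors' RPKM, which also divides by length. Rows of 4 values follow the order regular medium, 2i, DAXX-knockout regular and DAXX-knockout 2i, first in J1 and then in TKO. The members held between 1.01% of the repeat reads in J1 regular and 5.60% in TKO DAXX-knockout regular. A floor of 3 reads corresponded to at most 0.0445 RPM, and like the intervals below it covers counting error only. Whether a read that fits several copies was split, placed once or dropped was not given in the sources used here. Near-identical copies may share reads, so they are no replicates of each other. In RNA of whole cultures, fewer cells that transcribe a provirus and less RNA per cell cannot be told apart. Reads of proviruses that the cells carry but the mm9 assembly lacks have no row of their own.

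How far few copies carried a family differed widely among the 6. Every one of the 45 RLTR4_MM-int copies had reads in all 8 libraries, from 9004 to 101534 reads per copy over the libraries together, with a median of 32071. Its top 3 copies held 15.4% of its reads and its top 10 held 37.2%. The median copy ranged from 2.54 RPKM in J1 regular to 17.6 in TKO DAXX-knockout regular. RLTR6-int was the opposite case, with many copies near silence. Of its 196 copies 193 had reads, with a median of 168 over all libraries together, 49 of them under 100, and its median copy lay between 0.03 and 0.05 RPKM. One RLTR6-int copy alone held 26.8% of the reads of the family. In MuLV-int 1 of the 5 copies with reads held 67.2%, and in MuRRS-int 1 of 6 held 99.98%.

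**Figure D1:**
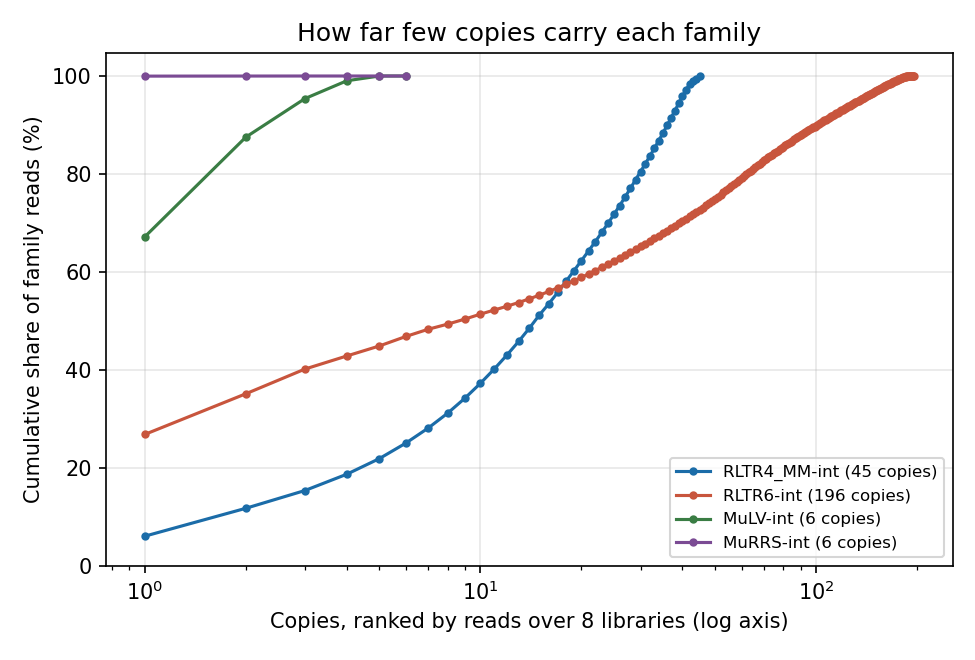
Cumulative share of the reads of each family (vertical axis, %) against its copies ranked by reads over the 8 libraries (horizontal log axis). MuRRS-int starts at 99.98% with its first copy, MuLV-int at 67.2%, RLTR6-int at 26.8% and RLTR4_MM-int at 6.03%.

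The remaining families were at or near the floor. MurERV4_19-int, a single copy on chromosome 4 of 5097 bp, had 0 reads in all 8 libraries. MuRRS4-int had 81 reads in all, 35 of them in TKO regular and 16 in TKO 2i. In the other 6 libraries it had between 2 and 8 reads. Its 2 copies differed in where those reads fell. One, at mm9 chr10:78883339-78888893, had 66 reads, with 30 in TKO regular and 0 in both J1 libraries of regular medium. The other, at mm9 chr6:89810194-89815363, had 15, of which 8 were in J1 DAXX-knockout regular, 5 in TKO regular and 2 in J1 regular. Neither family reached the mean of 1 RPM required for a test.

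**Figure D2:**
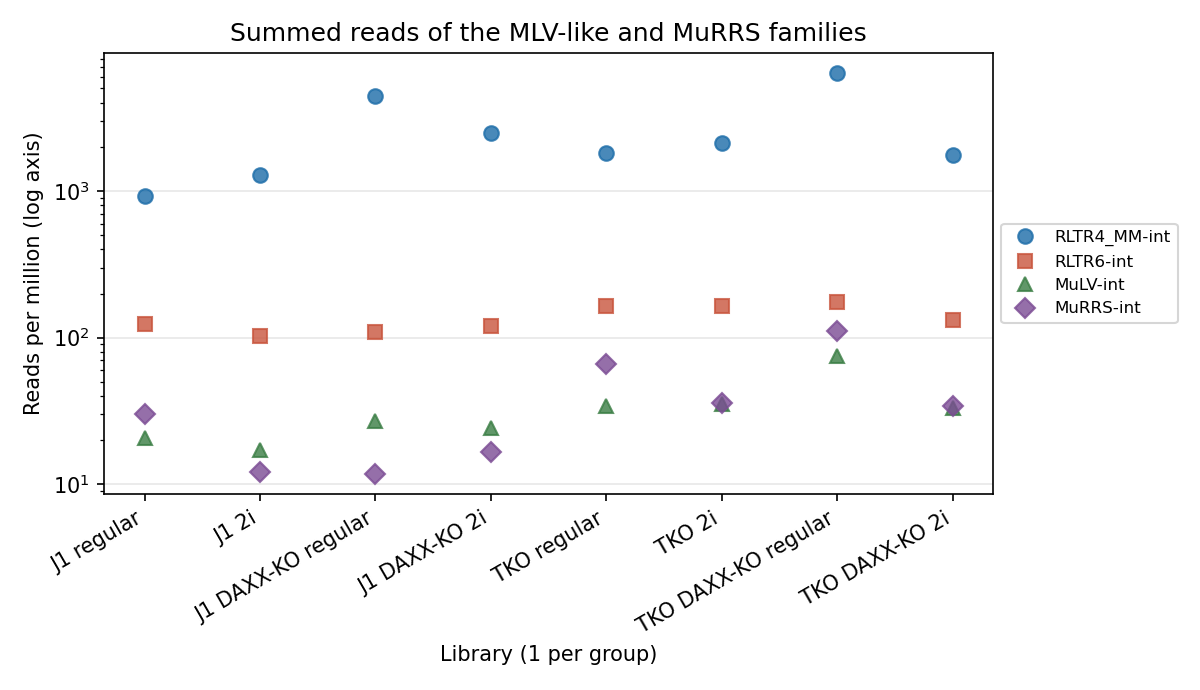
Summed RPM of the 4 tested families (vertical log axis) in the 8 libraries (horizontal axis, 1 point per library and family). RLTR4_MM-int is highest in TKO DAXX-knockout regular (6370 RPM) and J1 DAXX-knockout regular (4466 RPM), while RLTR6-int stays between 103 and 176 RPM.

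RLTR4_MM-int was at 921, 1276, 4466 and 2471 RPM in J1 and at 1824, 2137, 6370 and 1762 RPM in TKO. Both DAXX-knockout libraries in regular medium stood above the other 6. In 2i the DAXX-knockout level was above the intact level in J1 and below it in TKO. So the knockout and intact libraries overlapped. RLTR6-int was at 125, 103, 110 and 121 RPM in J1 and at 166, 165, 176 and 132 RPM in TKO. All 4 TKO values exceeded the 4 J1 values, and DAXX knockout and intact overlapped within each line. MuLV-int was at 20.6, 17.3, 26.9 and 24.1 RPM in J1 and at 34.1, 35.2, 74.5 and 33.0 RPM in TKO. Its groups by DNMT status did not overlap either, and TKO DAXX-knockout regular stood apart from the rest. MuRRS-int was at 29.99, 12.2, 11.8 and 16.7 RPM in J1 and at 66.5, 35.6, 112 and 34.4 RPM in TKO, again with no overlap between J1 and TKO. How many of all 44 tested families separated J1 from TKO in this way was not counted. The separation is therefore a description and not a trait particular to these families.

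The DAXX comparison asks which of these families differ when the chaperone is lost. In edgeR's quasi-likelihood test of family sums, fitted over all 8 libraries, 0 of the 4 tested member families passed an adjusted p of 0.05 (0% of all 44 families were called). DESeq2 and limma called 0 of the 4 as well, beside 1 and 0 of all 44. One member family, or 1 of the 4, had an unadjusted p below 0.05 in edgeR. RLTR4_MM-int had a fitted fold of 2.32 (adjusted p = 0.230 in edgeR) and log2 ratios of 1.19 ± 1.12 (SD of 4 pairs of libraries that differ in DAXX alone), above 0 in 3 of 4. It was called without TKO DAXX-knockout 2i (adjusted p = 0.00929 in edgeR), with adjusted p up to 0.639 over 18 alternatives. Without its leading copy the ratios were 4.49 and 1.78 in J1 and 3.52 and 0.817 in TKO, beside 4.85, 1.94, 3.49 and 0.824 with it. MuLV-int had a fitted fold of 1.41 (adjusted p = 0.646), MuRRS-int one of 1.04 (adjusted p = 0.896) and RLTR6-int one of 0.971 (adjusted p = 0.896) in edgeR. The RLTR6-int change of log2 −0.042 turned to 0.42 with TMM, 0.43 with median-of-ratios scaling and 0.43 with LINE1 scaling. Those scalings moved the median over all elements by between 0.44 and 0.45.

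Single copies of RLTR4_MM-int differed from each other. All 45 copies passed the filter of a mean of 0.1 RPKM, and edgeR called 15 of them higher with DAXX knockout and 0 lower. Of all 11322 elements tested 6.77% were called, 6.70% higher and 0.0618% lower. The median fitted log2 change was 0.74 over the 45 copies, −0.45 over all tested elements and 1.39 over the tested LTR elements, 44.8% of which were called. The 15 copies had J1 regular ratios of 7.40 to 10.3, and the other 30 had ratios of 0.455 to 5.89. Since the ratio in J1 is part of the fit, this is a description of the same contrast. The count of called member elements was 16 with an RLTR6-int copy, and it was 0 without J1 regular, J1 2i or J1 DAXX-knockout regular. Omitting TKO DAXX-knockout regular left 1, and it was 24 without J1 DAXX-knockout 2i. Over all elements those fits called 0, 2, 0, 1 and 4252 in the same order, beside 766 with no library omitted. The changes of the member count were thus not particular to the members.

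In J1 regular, 2 length classes of RLTR4_MM-int copies did not overlap in their DAXX ratios, while the remaining copies spanned both. Copy length entered no comparison. These length classes were chosen after the values were seen and carry no test. The 9 copies of 7559 or 7560 bp, all of them called, had ratios of DAXX knockout to intact between 7.40 and 10.3 in J1 regular, with a median of 8.26. The 17 copies of 7586 to 7588 bp, none of them called, had ratios between 0.455 and 3.27, with a median of 1.61. In J1 2i the medians of the same classes were 4.55 and 1.17. The 11 copies of 5509 to 6986 bp had ratios from 0.769 to 8.16 in J1 regular, and 5 were called. The other 8 copies, of 7486 to 7579 bp, had ratios from 0.578 to 8.09, and 1 was called. Among them the copy of 7557 bp at mm9 chr10:4620528-4628085, close in length to the called class, had a ratio of 5.52 and was not called. The 9 copies of 7559 or 7560 bp together held 31.1% of the reads of the family in J1 regular, against 55.8% when DAXX was knocked out, and summed to 287 and 2490 RPM there.

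In TKO the DAXX ratios of these length classes overlapped. The median ratio in regular medium was 3.21 for the 9 copies of 7559 or 7560 bp and 3.31 for the 17 copies of 7586 to 7588 bp, with ranges of 2.72 to 3.63 and 2.86 to 4.48. All 45 copies had a higher RPM with DAXX knockout in TKO regular, and 44 of 45 a lower one in TKO 2i, where the ratios lay between 0.576 and 1.04. All repeat elements together held 19.3% of the library total in TKO regular and 12.0% in TKO DAXX-knockout regular. In TKO 2i they held 14.4%, against 8.28% with DAXX knockout, so repeat reads as a whole were lower there too. How many of all elements were higher or lower in each pair was not counted, and copies that may share reads are not separate observations. The lowest ratio in TKO regular, 1.13, belonged to the copy at mm9 chr4:146593512-146601082, and the next lowest was 2.72. That chromosome 4 copy was also at 0.578 of the intact level in J1 regular, where 42 of 45 copies were above 1.

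**Figure D3:**
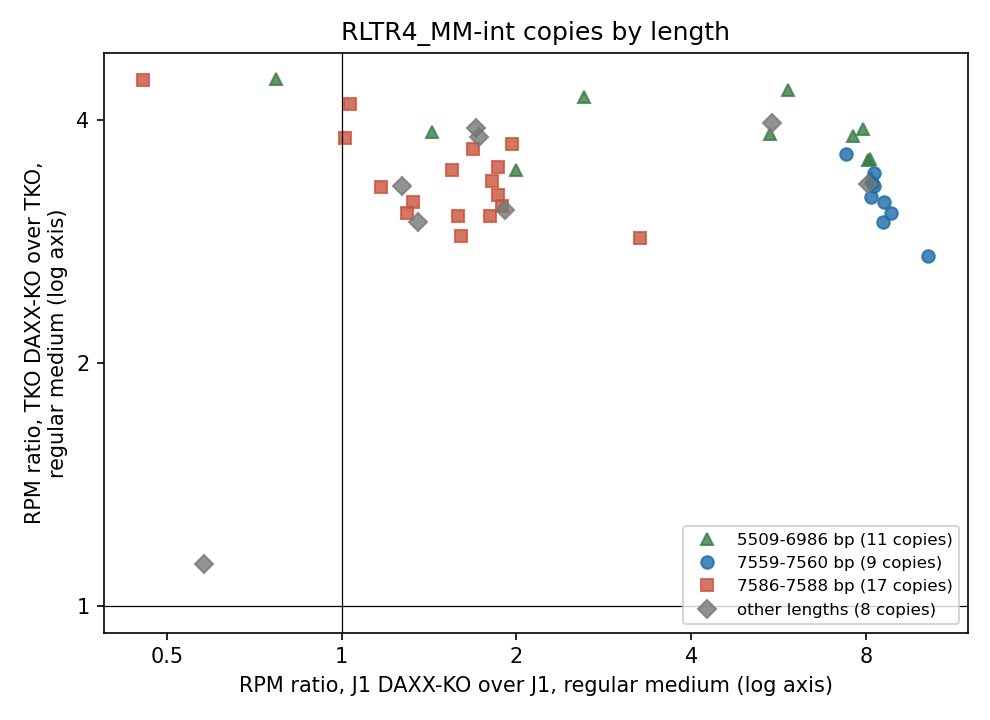
Ratio of RPM with DAXX knockout to RPM with DAXX intact in regular medium for the 45 RLTR4_MM-int copies, in J1 (horizontal log axis) and TKO (vertical log axis), 1 point per copy with symbols by copy length. Copies of 7559 or 7560 bp lie between 7.40 and 10.3 in J1 and copies of 7586 to 7588 bp between 0.455 and 3.27, while in TKO both classes lie between 2.72 and 4.48.

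The effective number of copies is the inverse of the summed squared shares and falls as fewer copies hold the reads. For RLTR4_MM-int it was 37.8, 33.0, 19.2 and 29.1 in J1 and between 32.5 and 38.8 in the 4 TKO libraries. The reads were thus most concentrated in J1 DAXX-knockout regular.

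The leading RLTR4_MM-int copy lies at mm9 chr2:15942862-15950422 and is 7560 bp long. It was at 57.4, 21.6, 589 and 234 RPM in J1 and at 57.1, 67.3, 155 and 70.3 RPM in TKO. Within J1 the knockout and intact libraries did not overlap, and within TKO 2i the 2 values were close. Its share of the family's reads was 6.23% (95% exact binomial interval 6.06% to 6.42%) in J1 regular, against 13.2% (13.1% to 13.3%) when DAXX was knocked out. It rose 4.10-fold with DAXX knockout (adjusted p = 0.00196 in edgeR). Omitting J1 regular (adjusted p = 0.301), J1 2i (0.403) or J1 DAXX-knockout regular (0.0745) ended the call in edgeR, with adjusted p from 6.76e-13 to 0.403 over 17 alternatives. Without TKO 2i its log2 change went from 2.03 to 2.66.

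The copy at mm9 chr5:43599920-43607479, of 7559 bp and rank 3 in reads, had the same order of libraries in J1. It was at 32.7, 28.9, 270 and 115 RPM in J1 and at 47.1, 56.9, 162 and 49.5 RPM in TKO. It rose 3.19-fold (adjusted p = 0.0169 in edgeR). Copies at mm9 chr13:21905019-21911129, chr5:24737257-24744243 and chr11:86696558-86704117 rose by log2 1.63, 1.71 and 1.67 with adjusted p of 0.0182, 0.0169 and 0.0169 in edgeR. For these 4 copies omitting any of the same 3 J1 libraries, or TKO DAXX-knockout regular, ended the call. The changes of the 15 called copies lay between log2 1.52 and 2.03.

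Other copies of the same family had another order in J1. A copy at mm9 chr10:8264765-8270369, of 5604 bp and rank 2 in reads, was at 36.2, 111, 27.9 and 60.3 RPM in J1 and at 135, 156, 608 and 102 RPM in TKO. Its ratio of DAXX knockout to intact was 0.769 and 0.545 in J1 and 4.49 and 0.653 in TKO. On chromosome 7 the copy at mm9 chr7:7023318-7030906, of 7588 bp, was at 15.1, 79.1, 6.87 and 34.5 RPM in J1 and at 80.0, 89.1, 358 and 62.8 RPM in TKO. Both were lowest in J1 DAXX-knockout regular, the library in which the chromosome 2 copy was highest.

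**Figure D4:**
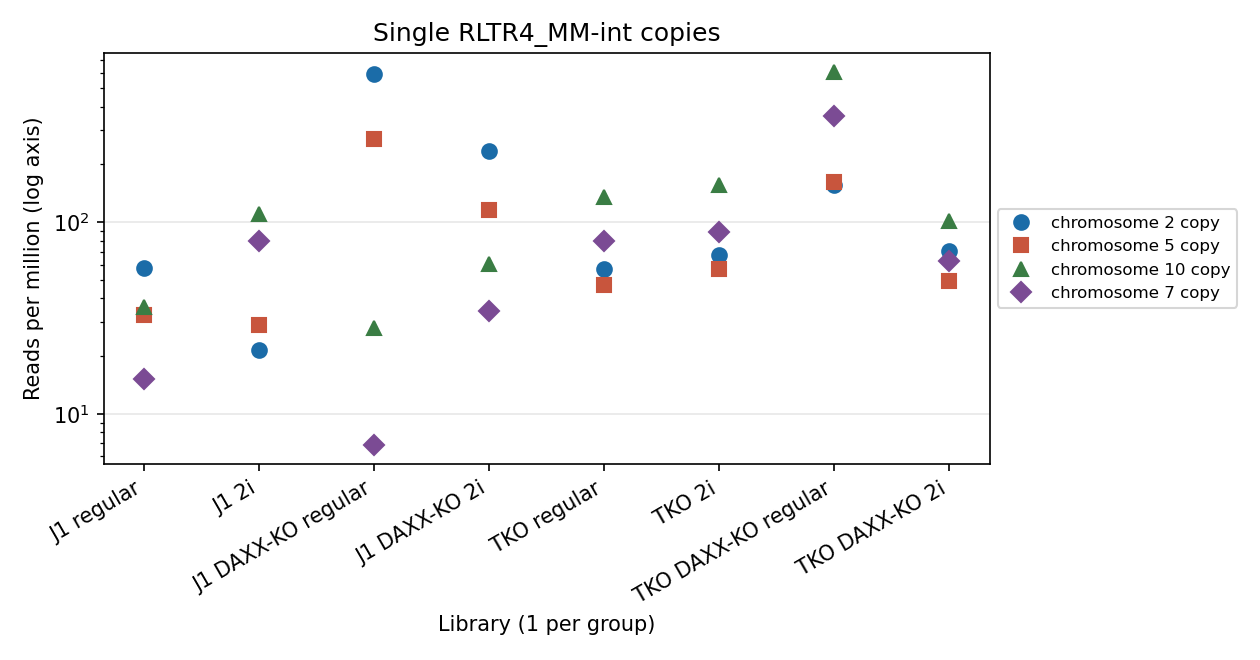
RPM (vertical log axis) of 4 RLTR4_MM-int copies in the 8 libraries (horizontal axis, 1 point per copy and library). In J1 DAXX-knockout regular the chromosome 2 copy is at 589 RPM and the chromosome 7 copy at 6.87 RPM, while in TKO DAXX-knockout regular they are at 155 and 358 RPM.

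The DNMT comparison asks which members differ between the TKO and J1 lines, taken over both media and both DAXX states. DNA methylation itself was not measured in these libraries. MuRRS-int rose 3.20-fold in TKO (adjusted p = 0.0337 in edgeR), which made 1 of the 4 tested member families called (11.4% of all 44 families were called, all higher). Its ratios of TKO to J1 were 2.22 and 2.92 with DAXX intact in regular medium and 2i, and 9.45 and 2.06 with DAXX knockout. The log2 ratios were 1.74 ± 1.02 (SD of 4 pairs). All but 6 of its 25767 reads came from 1 copy, at mm9 chr4:146099758-146105436, so the result is about that insertion and not about a family. Tested as an element among 11322, the copy had the same fitted fold and an adjusted p of 0.109 in edgeR. The family call was lost with TMM (adjusted p = 0.129), median-of-ratios scaling (0.137), LINE1 scaling (0.135) and with the other factors left out of the fit (0.0596) in edgeR. These 3 scalings moved the median over all elements by between −0.17 and −0.14. The family call also ended without J1 DAXX-knockout regular (adjusted p = 0.151) or TKO 2i (adjusted p = 0.158) in edgeR.

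The fitted fold was 1.93 for MuLV-int (adjusted p = 0.125), 1.41 for RLTR4_MM-int (0.882) and 1.39 for RLTR6-int (0.622) in edgeR. MuLV-int and RLTR6-int were higher in TKO in 4 of 4 pairs, with log2 ratios of 0.92 ± 0.44 and 0.47 ± 0.26 (SD of 4 pairs), and RLTR4_MM-int in 3 of 4, with 0.44 ± 0.65. DESeq2 called MuLV-int as well, with an adjusted p of 0.0281, and called 9 of all 44 families. In both families the leading copy lay on distal chromosome 4. The fitted log2 change was 0.95 in MuLV-int and 0.47 in RLTR6-int, and without leading copies 0.43 and 0.20. The ratios of the remaining RLTR6-int copies together were 1.12 and 1.46 with DAXX intact and 1.14 and 0.934 with DAXX knockout. Those of the remaining MuLV-int copies were 0.998, 2.45, 1.43 and 0.701 in the same order, so their direction differed among the pairs.

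The leading copies of 3 families lay close together on distal chromosome 4. Within 3 Mb on either side of the MuRRS-int copy started 10 member copies, among them the leading copy of MuLV-int at mm9 chr4:145686787-145694366 and of RLTR6-int at mm9 chr4:146371314-146377061. This window was chosen after the values were seen. The leading RLTR6-int copy was at 28.0, 19.5, 20.1 and 16.7 RPM in J1 and at 57.5, 43.3, 73.3 and 35.0 RPM in TKO. The leading MuLV-int copy was at 13.5, 12.8, 10.3 and 13.7 RPM in J1 and at 26.96, 24.3, 50.9 and 25.8 RPM in TKO. For both copies, every TKO library was above every J1 library, and the highest was TKO DAXX-knockout regular. Tested as elements for DNMT, both had a fitted fold of 2.44 and neither was called (adjusted p = 0.9999 for each in edgeR). How many of all elements separated J1 from TKO in this way was not counted. Together the 10 copies were at 107, 72.9, 64.9 and 80.6 RPM in J1 and at 204, 146, 299 and 135 RPM in TKO.

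The DAXX ratios of these 10 copies together were 0.605 and 1.10 in J1 and 1.47 and 0.927 in TKO. The RLTR4_MM-int copies outside the window together had ratios of 4.98, 1.95, 3.55 and 0.824. The RLTR4_MM-int copy inside the window was at 28.4, 19.4, 16.4 and 20.8 RPM in J1 and at 41.1, 30.7, 46.4 and 25.997 RPM in TKO. It was highest in TKO DAXX-knockout regular and lowest in J1 DAXX-knockout regular, as were the MuLV-int and MuRRS-int copies near it. The copies of the window made up 28.4% of RLTR6-int reads in J1 regular and 51.2% in TKO DAXX-knockout regular.

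**Figure D5:**
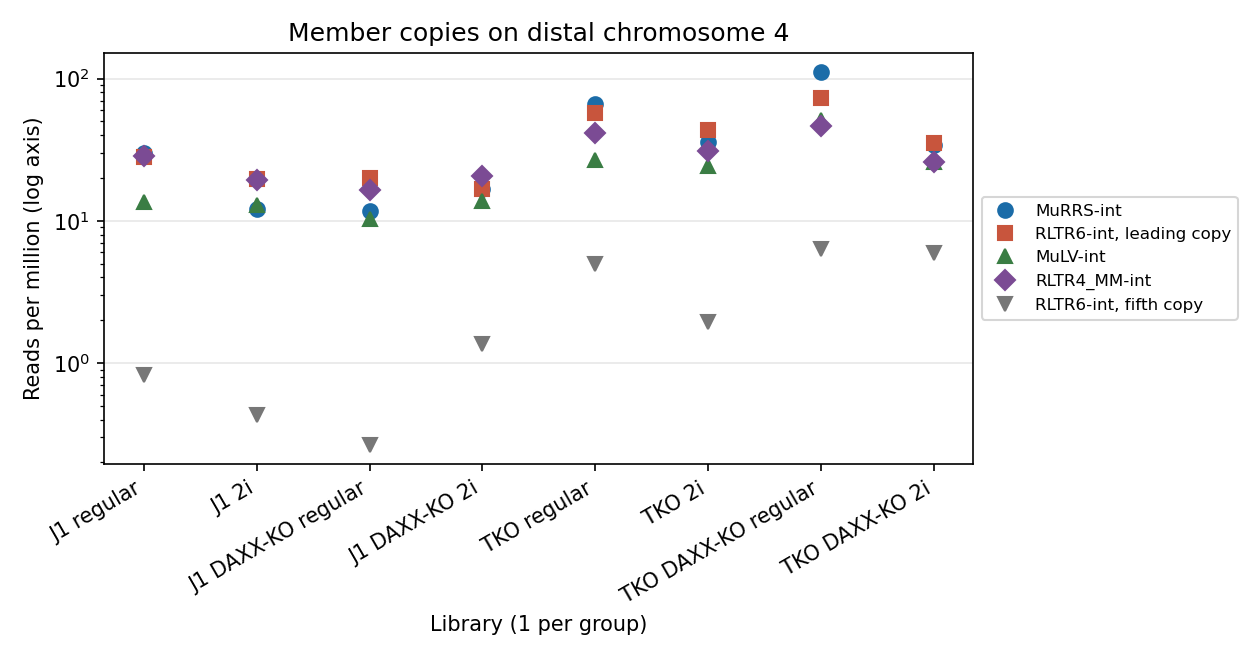
RPM (vertical log axis) of 5 member copies on distal chromosome 4 in the 8 libraries (horizontal axis, 1 point per copy and library). The MuRRS-int copy is at 111.8 RPM and the leading RLTR6-int copy at 73.3 RPM in TKO DAXX-knockout regular, while they are at 11.8 and 20.1 RPM in J1 DAXX-knockout regular.

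Of single member copies 3 of the 81 tested were called higher in TKO and 0 lower by edgeR, beside 0.609% of all elements called, 0.583% higher and 0.0265% lower. The count was 16 without J1 DAXX-knockout 2i, 11 without TKO DAXX-knockout 2i, 1 when either J1 regular or TKO DAXX-knockout regular was omitted and 0 when J1 DAXX-knockout regular was. Over all elements those fits called 118, 79, 54, 53 and 45 in the same order, beside 69 with no library omitted. The 81 comprised 45 RLTR4_MM-int, 31 RLTR6-int, 4 MuLV-int and 1 MuRRS-int copies. The chromosome 10 and chromosome 7 copies of RLTR4_MM-int described above rose by log2 2.00 (adjusted p = 0.000104) and 2.32 (adjusted p = 0.00101) in edgeR. TMM, median-of-ratios scaling, LINE1 scaling and DESeq2 each ended both calls, as did omitting J1 regular or either DAXX-knockout library of regular medium. The chromosome 7 copy also lost its call with the other factors left out. Without TKO DAXX-knockout regular the log2 change of the chromosome 10 copy went from 2.00 to 1.06, and that of the chromosome 7 copy from 2.32 to 1.32. Without J1 DAXX-knockout regular they were 1.38 and 1.36. For the chromosome 7 copy it was 2.95 without J1 2i, 3.24 without TKO 2i and 2.99 without TKO DAXX-knockout 2i. The third was the RLTR6-int copy at mm9 chr4:145825958-145831705, inside the chromosome 4 window. It was at 0.820, 0.430, 0.265 and 1.36 RPM in J1 and at 4.95, 1.95, 6.35 and 5.91 RPM in TKO, and rose 6.32-fold (adjusted p = 4.04e-05 in edgeR). Its call was lost with TMM (adjusted p = 0.0753), LINE1 scaling (0.0504) and without J1 DAXX-knockout regular (0.198) in edgeR.

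Length classes of RLTR4_MM-int differed in this comparison too, as the same libraries enter it. With DAXX knockout in regular medium the 9 copies of 7559 or 7560 bp were all lower in TKO than in J1, with ratios of 0.263 to 0.763. The 17 copies of 7586 to 7588 bp were all higher, with ratios of 1.74 to 52.2. With DAXX intact the ranges were 0.994 to 1.56 and 1.93 to 5.30 in regular medium and 1.68 to 3.11 and 1.13 to 2.55 in 2i.

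The medium comparison asks which members differ in 2i plus vitamin C. In edgeR 0 of the 4 tested member families passed (15.9% of all 44 were called). DESeq2 and limma called 0 of the 4 as well, beside 6 and 5 of all 44. Of the members MuRRS-int alone had an unadjusted p below 0.05 in edgeR. MuRRS-int had a fitted fold of 0.519 (adjusted p = 0.231) and was lower in 3 of 4 pairs, with a ratio of 1.42 in J1 DAXX-knockout. The fitted fold was 0.722 for RLTR4_MM-int (adjusted p = 0.842), 0.764 for MuLV-int (0.842) and 0.910 for RLTR6-int (0.846) in edgeR. The RLTR6-int change of log2 −0.14 turned to 0.14, 0.18 and 0.17 with TMM, median-of-ratios and LINE1 scaling, which moved the median over all elements by between 0.23 and 0.28.

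The medium ratios of RLTR4_MM-int copies spread more widely in J1 than in TKO. The ratios of 2i to regular for the family were 1.38 and 0.553 in J1 with DAXX intact and knocked out, and 1.17 and 0.277 in TKO. In TKO DAXX-knockout 45 of 45 copies were lower in 2i, with ratios of 0.1655 to 0.560. All repeat elements together held 12.0% of the library total in TKO DAXX-knockout regular and 8.28% in TKO DAXX-knockout 2i. Directions over all elements were not counted for the medium either. In J1 DAXX-knockout the 9 copies of 7559 or 7560 bp had ratios of 0.397 to 0.440, and 15 of the 17 copies of 7586 to 7588 bp were above 1. In TKO with DAXX intact 44 of 45 copies were above 1, with a highest ratio of 1.47. The exception, at 0.747, was the chromosome 4 copy.

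The interactions of DAXX with DNMT and of DAXX with the medium were tested on family sums, and 0 of the 4 member families were called in either (0% of all 44 families for each). None had an unadjusted p under 0.05 in edgeR, and DESeq2 and limma called 0 of the 4. Over all 44 families limma called 0 in both interactions. DESeq2 called 23 of the 44 for DAXX with DNMT and 0 for DAXX with the medium. The member result is thus no table-wide absence of calls in DESeq2. Without J1 DAXX-knockout 2i, edgeR called 1 member family, lower, in the interaction of DAXX with the medium.

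A single RLTR6-int copy was called lower with DAXX knockout and another lower in 2i, beside 0.0618% and 4.72% of all elements called lower. In the medium comparison 5.21% of all elements were called, 0.495% of all as higher. The first, at mm9 chr3:10875774-10883400, had 41, 40, 6 and 36 reads in J1 and 332, 82, 26 and 23 reads in TKO. Its fitted fold was 0.242 (adjusted p = 0.0182 in edgeR), and its mean level was 0.110 RPKM, just above the filter of 0.1. It passed that filter through TKO regular, a library with DAXX intact, where it was at 0.44 RPKM against at most 0.15 in the others, and it was not tested without that library. The call was lost in 9 of 15 alternatives, with adjusted p up to 0.403, and the log2 change went from −2.05 to −2.81 without J1 DAXX-knockout 2i. The second, at mm9 chr7:12066973-12072334, was at 5.87, 0.608, 2.33 and 0.381 RPM in J1 and at 1.43, 0.352, 0.282 and 0.262 RPM in TKO. Its fitted fold in 2i was 0.234 (adjusted p = 0.0133 in edgeR), a call lost in 8 of 16 alternatives, with adjusted p up to 0.658. It too passed the filter through the libraries in which it was high, since its 2i levels lay between 0.05 and 0.11 RPKM. Copies admitted in this way had to differ, so both calls are given as a description. In TKO DAXX-knockout its levels were 0.282 RPM in regular medium and 0.262 in 2i, a ratio of 0.931.

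The RLTR6-int copies of rank 2 and 3 had levels of their own. That at mm9 chr13:68581425-68589033 was at 7.68, 11.8, 7.51 and 14.6 RPM in J1 and at 8.64, 12.9, 11.6 and 17.2 RPM in TKO. It was higher in 2i in 4 of 4 pairs, with ratios of 1.48 to 1.95, and was not called. That at mm9 chr4:143675035-143682658 was at 4.87, 7.64, 5.14 and 9.71 RPM in J1 and at 4.59, 7.75, 8.98 and 7.34 RPM in TKO. It lies in the chromosome 4 window, yet its TKO and J1 libraries overlapped.

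The MuLV-int copies of rank 2 and 3 lay off chromosome 4 and were higher with DAXX knockout in 3 of 4 pairs. On chromosome 13 the copy at mm9 chr13:67986373-67993962 was at 3.19, 2.85, 8.75 and 5.62 RPM in J1 and at 4.63, 6.75, 18.2 and 4.50 RPM in TKO. Its ratios of DAXX knockout to intact were 2.74 and 1.97 in J1 and 3.93 and 0.667 in TKO. On chromosome 9 the copy at mm9 chr9:41714143-41719774 was at 1.95, 0.579, 4.62 and 3.16 RPM in J1 and at 1.40, 3.24, 3.50 and 2.36 RPM in TKO, with ratios of 2.37, 5.46, 2.50 and 0.729. Neither copy was called. The leading copy's share of MuLV-int reads was lowest in J1 DAXX-knockout regular, at 38.4% (95% exact interval 36.3% to 40.5%), against 65.4% (63.0% to 67.8%) in J1 regular and 79.1% (77.7% to 80.5%) in TKO regular.

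The transcripts assembled by the authors give another view of some copies, from the same libraries and so not an independent one. Between 9 and 12 of the 45 RLTR4_MM-int copies and between 6 and 11 of the 196 RLTR6-int copies overlapped an assembled locus in each library by at least 1 base. Over the chromosome 2 copy of RLTR4_MM-int a locus was assembled only in the J1 DAXX-knockout libraries. In regular medium it ran from 15942050 to 15954654 at 24.1 FPKM, and in 2i from 15942121 to 15954557 at 9.09 FPKM, both beyond the 2 ends of the copy. A longer locus over it in J1 DAXX-knockout 2i was at 1.13 FPKM. Over the chromosome 5 copy no locus was assembled in any library, although it reached 270 RPM, so a missing locus does not show a low level.

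Over the higher-coordinate end of the chromosome 10 copy a locus was assembled in all 8 libraries, ending between 8271012 and 8271066, beyond the copy. It was at 3.57, 9.44, 1.77 and 5.62 FPKM in J1 and at 15.0, 16.7, 58.7 and 9.89 FPKM in TKO. The lowest and the highest library were the same as for the reads of the copy. The MuRRS-int copy lay inside a locus of about the same bounds, from 146064789 to 146365189 in TKO regular, in 7 libraries. That locus was at 89.4, 67.0 and 104.7 FPKM in the J1 libraries other than J1 regular, and at 262, 175, 245 and 133 FPKM in TKO. It was highest in TKO regular, whereas the reads of the copy were highest in TKO DAXX-knockout regular (112 RPM, against 66.5 in TKO regular). No locus overlapped the copy in J1 regular. Over the leading MuLV-int copy a locus was assembled in 3 of the 4 TKO libraries and in none of the J1 libraries. It was at 117 FPKM in TKO regular, 112 in TKO DAXX-knockout regular and 22.1 in TKO DAXX-knockout 2i. The locus ran from 145658832 to 145696199 in TKO regular and from 145658669 to 145696074 in TKO DAXX-knockout regular. In TKO DAXX-knockout 2i it ran from 145651500 to 145696064, in each case beyond both ends of the copy. The reads of that copy alone were at 26.96, 50.9 and 25.8 RPM in these libraries, so the highest library differed here too. For the MuRRS-int and MuLV-int copies this sets a whole locus beside the copy inside it, which are unlike measures. Which genes these loci belong to was not analysed here.

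Over the 8 libraries, the family most like MuRRS-int in log2(RPM + 0.1) was RLTR6-int, with a Pearson's r of 0.92 among 43 families compared. Lx9, an old LINE family, had 0.86 and MuLV-int 0.84. RLTR4_MM-int was most like MMERVK10C-int and MMETn-int, each with 0.80, and ETnERV2-int with 0.75, all of the ERVK class. These values describe 8 libraries that share lines and totals. The other ERV1 families of the context list that the table held were MMERGLN-int and MURVY-int. MMERGLN-int, a gammaretroviral family of 88 copies, was called in the DNMT and medium comparisons by edgeR, with fitted folds of 7.48 (adjusted p = 0.00133) and 4.53 (adjusted p = 0.00992), and not in the DAXX comparison. Of its 56 tested copies 53 were called higher in TKO and 48 higher in 2i. Of the 45 RLTR4_MM-int copies 2 and 0 were, beside 0.583% and 0.495% of all elements. MURVY-int was at no more than 0.0781 RPM and was not tested.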

How the data were processed

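The repeat table gives, per the file headers, the read count of each element in mm9 and its RPKM, both made by the authors. The other files give the FPKM of transcripts that the authors assembled per library. TopHat, Bowtie2 2.2.4, Cufflinks, Cuffdiff and mm9 stand in the submitters' processing notes with no role. The counter was not given in the sources used here. No sequence is printed, since no genome of that build was at hand.

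Library totals were recovered from count and RPKM of elements above 5 RPKM. With them, the deposited RPKM was recovered to 0.011 for at least 99.99% of elements. Positions are as deposited. EdgeR 4.0.16 (R 4.3.3, quasi-likelihood) tested DAXX, DNMT and medium, each with the others as covariates, on family sums (mean of 1 RPM) and elements (mean RPKM of 0.1), with Benjamini-Hochberg adjustment at 0.05 over all features. This left 4 residual degrees of freedom, or 3 with 1 interaction. With 1 library per group, the two-sided p-values use the scatter that the factors leave over lines and media, not replicates of a line. Alternatives were TMM, median-of-ratios and LINE1 scaling, limma 3.58.1 on log2(value + 0.1) or with 1, DESeq2 1.42.0, other filters, sums without leading copies, fits without covariates and the omission of each library. The fits were tested on simulated data. Tables were handled in Python 3.11.15 with pandas 2.3.3.

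Fits are given for each tested family and for up to 5 called copies each way per factor by mean RPKM. Levels are given for the copy with most reads in a family and the next 2 where at least 5 had reads. Interaction fits are given only at an unadjusted p under 0.05. Other copies were chosen after their values were seen. The members and lists were chosen with earlier results of these data known.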

Additional observations from a re-analysis of the deposited data

How the results depend on the processing

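Pairing by replicate was not possible because each group had 1 library, which leaves no replicate numbers to pair by. Libraries that differ in 1 factor alone were set against each other as 4 matched pairs, by their ratios and with no test. The number of member families called in the DNMT comparison, 1 as reported, was 0 with TMM, median-of-ratios or LINE1 scaling, with the other factors left out, without leading copies and without the member copies on distal chromosome 4, and 2 with DESeq2. The last exclusion was added after the data were seen, and both exclusions left MuRRS-int under the filter. Over all families tested those fits called 2 with TMM, 3 with median-of-ratios or LINE1 scaling and 0 with the other factors left out. They called 2 without leading copies, 4 without the chromosome 4 copies and 9 with DESeq2, beside 5 as reported. With single libraries omitted, the count of member families called lay between 0 and 1 in the DAXX, DNMT and DAXX-by-medium comparisons. Over all families it lay between 0 and 3, 2 and 7, and 0 and 1 in the same order. RLTR4_MM-int was called for DAXX without TKO DAXX-knockout 2i (adjusted p = 0.00929, edgeR). The number of member copies called for DAXX, 16, lay between 0 and 24, for DNMT, 3, between 0 and 16, and for the medium, 1, between 0 and 3 when libraries were omitted. Over all elements those fits called between 0 and 4252 for DAXX and between 45 and 118 for DNMT. For DNMT the member count was 0 with TMM or LINE1 scaling, 1 with median-of-ratios scaling and 5 with limma at either pseudocount. Over all elements the DNMT calls rose from 69 to 327 with TMM, 348 with LINE1 and 359 with median-of-ratios scaling. With limma they were 74 and 71 at pseudocounts of 0.1 and 1. For the medium the member count was 0 with TMM, median-of-ratios or LINE1 scaling and at a mean RPKM of at least 1. It was 2 with DESeq2 or with the other factors left out, and 3 with no filter. The fit as reported called 590 of all 11322 elements for the medium (5.21%). Counts over all elements under the alternatives are not given here for the medium, so these changes are not read as particular to the members. The MuRRS-int change for DAXX, log2 0.060, lay between −0.33 and 0.39 with single libraries omitted and was −0.046 and −0.038 in limma with pseudocounts of 0.1 and 1, −0.23 without J1 DAXX-knockout 2i, −0.029 without TKO regular, −0.040 without TKO 2i and −0.33 without TKO DAXX-knockout regular. The RLTR6-int change for DAXX, −0.042, lay between −0.13 and 0.039 with libraries omitted and was 0.42 with TMM, 0.43 with median-of-ratios and 0.43 with LINE1 scaling, 0.0045 without J1 DAXX-knockout regular, 0.012 without TKO 2i and 0.039 with TKO DAXX-knockout 2i omitted. The change of that family for the medium, −0.14, was 0.14, 0.18 and 0.17 with those scalings, 0.029 without leading copies and 0.0095 without the chromosome 4 copies. The causes were not tested. Depth was no limit for the 4 tested families, of at least 821 reads per library, but was for MuRRS4-int.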
